A study of Mus musculus with 14 samples.

Results

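The GABA-A receptor subunit genes Gabra2, Gabra3, Gabra5, Gabrb2, Gabrg1 and Gabrd and the neuronal chloride exporter gene Slc12a5 were followed through poly(A) RNA libraries of mouse brain from adults and from the late fetal stage E19.5. These 7 genes were taken by name from the 23375 genes of the expression table, and the granule cell subunit gene Gabra6 was left out of the set. The 14 libraries form 7 groups of 2: adult KO2, adult wild type set 1, adult KO3, adult wild type set 2, E19.5 KO7, E19.5 KO2 and E19.5 wild type (WT). KO2 mice lacked H19-DMR and IG-DMR, KO3 mice lacked H19-DMR, IG-DMR and Rasgrf1-DMR, and KO7 mice lacked 7 such regions, named for Gnas, Grb10, Igf2r, Kcnq1, Nespas, Peg3 and Snrpn. A DMR is a differentially methylated region, a stretch of DNA that carries a methyl mark on the copy from 1 parent and controls imprinted genes beside it. The mutants were made from haploid embryonic stem cells. The labels do not give the parent of origin of the genomes. Knowledge of the study puts both genomes as maternal in KO2 and KO3 and as paternal in KO7, so that deletion and parental origin cannot be told apart. Strain, adult age, sex and brain region were not given, and nothing says that the 2 libraries of a group came from separate animals, so the p-values measure a spread that may be technical.

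GABA-A receptors are chloride channels built from alpha, beta and gamma or delta subunits, and the alpha subunit sets where a receptor sits and which drugs it binds. Chloride is carried into young neurons by the importer Slc12a2 (NKCC1) and out of mature neurons by the exporter Slc12a5 (KCC2). The balance of these transporters decides whether an open receptor excites or inhibits the cell. In rodent brain the makeup of these receptors changes after birth, and Slc12a5 rises over the same weeks.

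Values are FPKM, fragments scaled to transcript length and library size, and a level in FPKM can be compared between genes. Read depth is unknown. Each library reached 1 FPKM in 12701 to 13398 genes, and no member was at 0 in any library. Every log2 change was computed from log2(FPKM + 1), and some are given with standard errors (SE) or 95% intervals. A change passed when its limma p, adjusted by the Benjamini-Hochberg method over the 14322 tested genes, was under 0.05. Before deposit, the libraries of adult KO3 and of wild type set 2 (4 in all) were handled unlike the other 10: 9994 genes are listed at 0 in all 4, and 6396 of these are above 0 elsewhere. KO3 was therefore compared with set 2, and adult KO2 with set 1. The same 4 libraries held cerebellar granule cell markers, with summed levels over 8 markers of 258 to 319 FPKM in adult KO3 and 318 to 371 FPKM in wild type set 2. The sums were 65.3 to 72.8 FPKM in adult KO2 and 39.9 to 62.5 FPKM in wild type set 1. Neuron markers were present in all groups. Replicate 1 of E19.5 KO2 and replicate 2 of both adult KO3 and wild type set 2 stood apart in earlier work on these data. For KO3 and E19.5 KO2, calls on members and on other genes of inhibitory signalling are also given without these 3 libraries. So are member values with an unadjusted p under 0.05. Member values for the E19.5 KO2 stage and KO7 comparisons stand together after the results on KO7.

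**Figure D1:**
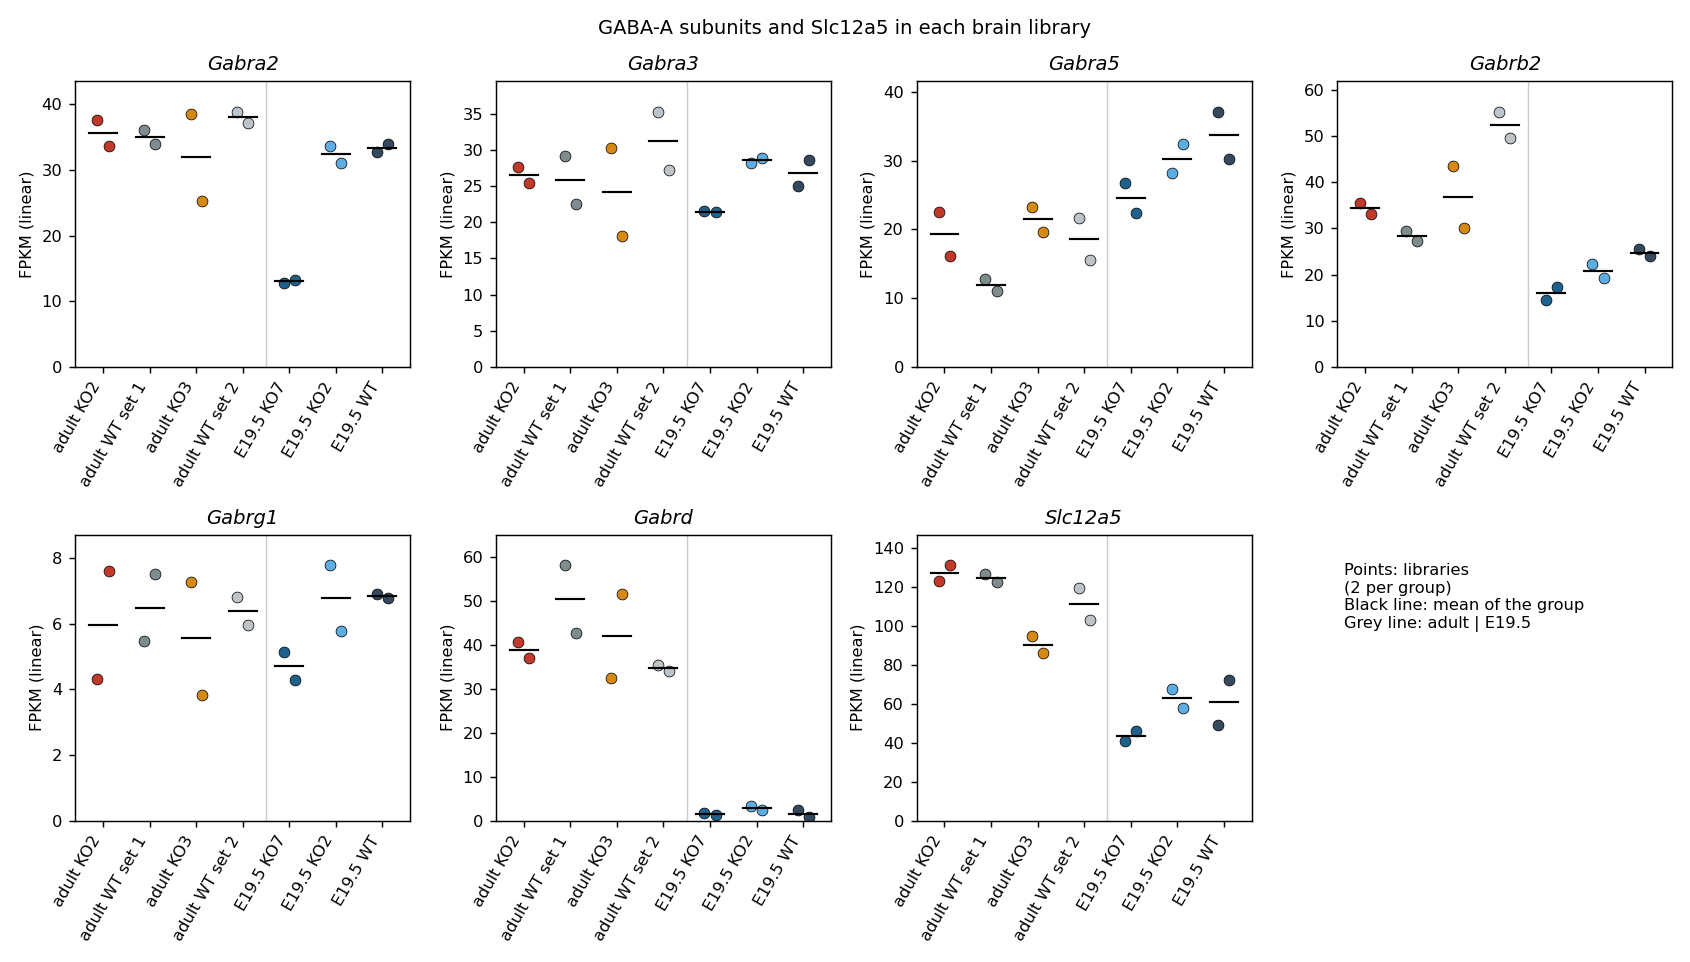
FPKM of the 7 genes in each library on linear axes that start at 0; points are libraries, 2 per group, black lines are group means and the grey line parts adult groups from E19.5 groups. Gabrd lies at 32.5 FPKM or more in every adult library and at 3.39 FPKM or less in every E19.5 library, and Gabra2 is lowest in both KO7 libraries.

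Slc12a5 was the most abundant of the 7 genes in every group, and its libraries did not overlap those of the next gene in any of them. In adult wild type set 1 the order of mean levels was Slc12a5, Gabrd, Gabra2, Gabrb2, Gabra3, Gabra5 and Gabrg1, and the neighbours Gabrb2 and Gabra3 overlapped. In E19.5 wild type the order was Slc12a5, Gabra5, Gabra2, Gabra3, Gabrb2, Gabrg1 and Gabrd. There Gabra5 overlapped Gabra2, and Gabra3 overlapped Gabrb2. Gabrd thus had the lowest rank in E19.5 wild type and the one below Slc12a5 in adult wild type set 1. Gabra5 held the rank below Slc12a5 in E19.5 wild type and the one above Gabrg1 in adult wild type set 1. In adult wild type set 2 Gabrd had rank 4 (mean 34.7 FPKM), below Gabrb2 (52.4 FPKM) and Gabra2 (38.0 FPKM). In adult KO2 and adult KO3 Gabrd had rank 2, but its libraries overlapped those of the next gene. Gabrg1, whose gamma subunit is found in few brain regions and in glia, was the lowest of the 7 in every adult group, at 3.84 to 7.61 FPKM over the 8 adult libraries.

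The comparison of stages asks how these genes differ between the adult and the late fetal brain. In adult wild type set 1 against E19.5 wild type, Gabrd and Slc12a5 were higher, Gabra5 was lower, and Gabra2, Gabra3, Gabrb2 and Gabrg1 did not pass. Of all tested genes, 56.0% passed in this comparison (21.9% higher and 34.1% lower), so 3 of 7 members is near the share of all genes. The median change of all genes was -0.15 as deposited and -0.03 with median-of-ratios scaling. That shift is as large as the smallest member changes and well below those that passed.

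Gabrd encodes the delta subunit of receptors outside synapses, which respond to low ambient GABA and to neurosteroids. It had 58.0 and 42.8 FPKM in adult wild type set 1, against 2.44 and 0.724 FPKM in E19.5 wild type. No library of one stage came near the other. The means were 50.4 ± 10.8 and 1.58 ± 1.22 FPKM (SD, n = 2 each), a log2 change of 4.38 (SE 0.30, limma adjusted p = 6.97e-07). In KO2 brain Gabrd had 40.5 and 36.9 FPKM in the adult, against 3.39 and 2.51 FPKM at E19.5, a log2 change of 3.34 (SE 0.30, limma adjusted p = 6.67e-06). The size of these changes depends on the constant added to the low E19.5 levels: with 0.1 in place of 1 FPKM they were 5.11 in wild type and 3.68 in KO2, and with 10 FPKM they were 2.37 and 1.91. Each of these passed.

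Slc12a5 had 127 and 122 FPKM in adult wild type set 1, against 49.3 and 71.97 FPKM in E19.5 wild type. The stages did not overlap, and the 2 E19.5 libraries lay further apart than the 2 adult ones. The log2 change was 1.05 (SE 0.17, limma adjusted p = 0.000293). In KO2 brain Slc12a5 had 123 and 131 FPKM in the adult, against 67.4 and 57.9 FPKM at E19.5, with a log2 change of 1.01 (SE 0.17, limma adjusted p = 0.00049). The exporter thus rose about as much in KO2 brain as in wild-type brain, and the difference of the 2 stage changes was -0.04 with a 95% interval of -0.56 to 0.48.

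Gabra5 encodes an alpha subunit that is abundant in hippocampus and sits largely outside synapses. It had 12.8 and 11.03 FPKM in adult wild type set 1, against 37.1 and 30.2 FPKM in E19.5 wild type. The log2 change was -1.42 (SE 0.20, limma adjusted p = 0.000104). With wild type set 2, at 21.6 and 15.6 FPKM, in place of set 1 it was -0.83 (limma adjusted p = 0.00339). In KO2 brain it had 22.5 and 16.1 FPKM in the adult, against 28.2 and 32.5 FPKM at E19.5. The groups again did not overlap, and the log2 change was -0.64 (SE 0.20, limma adjusted p = 0.0188). That call was lost without E19.5 KO2 replicate 2 (-0.54, adjusted p = 0.118) and without adult KO2 replicate 2 (-0.41, adjusted p = 0.171), and with both adult wild type sets pooled as 1 group (adjusted p = 0.0678). No wild-type library enters this log2 change, so pooling left its value at -0.64 and changed its error.

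Gabra2, whose alpha subunit is found at synapses and at the start of axons, had 36.1 and 34.0 FPKM in adult wild type set 1, against 32.7 and 34.0 FPKM in E19.5 wild type. Gabra3, an alpha subunit gene on the X chromosome, had 29.1 and 22.5 FPKM in adult wild type set 1, against 25.0 and 28.6 FPKM in E19.5 wild type. Gabrg1 had 5.48 and 7.52 FPKM in adult wild type set 1, against 6.91 and 6.78 FPKM in E19.5 wild type. For these genes the 95% intervals of the log2 change were -0.28 to 0.42, -0.52 to 0.40 and -0.68 to 0.52, in the order given. All 3 intervals exclude a change as large as that of Gabra5, Gabrd or Slc12a5.

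Gabrb2, a beta subunit abundant in adult brain, depended on the group compared. It had 29.3 and 27.3 FPKM in adult wild type set 1, against 25.5 and 24.01 FPKM in E19.5 wild type (log2 change 0.19, SE 0.16, limma adjusted p = 0.348). In wild type set 2 it had 55.3 and 49.5 FPKM, and with that set in place of set 1 the log2 change was 1.05 (limma adjusted p = 0.000196, where 60.9% of tested genes passed). In KO2 brain it had 35.6 and 33.0 FPKM in the adult, against 22.3 and 19.2 FPKM at E19.5 (log2 change 0.70, SE 0.16, limma adjusted p = 0.00431), a call that was lost with the sets pooled (adjusted p = 0.0813) at the same log2 change of 0.70. In that comparison 49.3% of tested genes passed (20.7% higher and 28.6% lower), and so did 4 of the 7 members: Gabrd, Slc12a5 and Gabrb2 higher and Gabra5 lower. Gabrb2 lies beside Gabra6 on chromosome 11. Gabra6, the alpha subunit gene of cerebellar granule cells, had 42.9 and 59.1 FPKM in wild type set 2 and 47.3 and 29.1 FPKM in adult KO3, but was at 0 in both libraries of wild type set 1. The part of cerebellar tissue in the Gabrb2 levels was not tested.

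**Figure D2:**
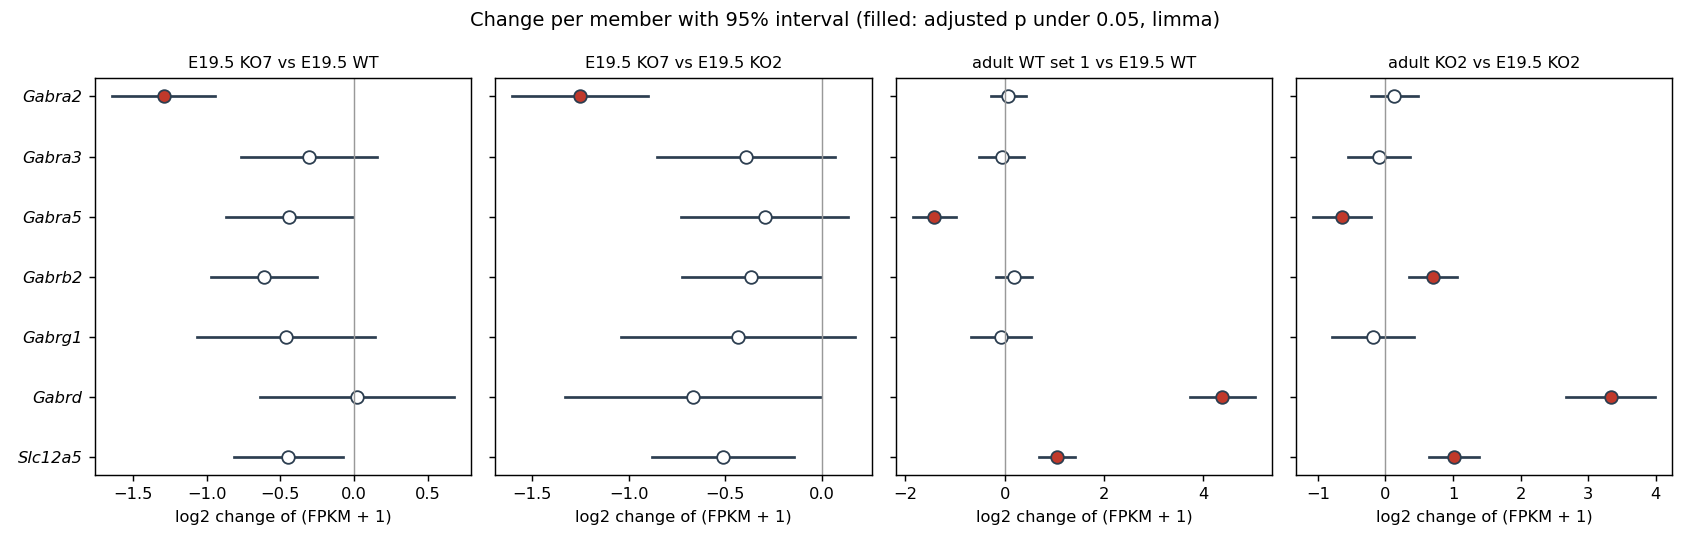
Log2 change of each gene (point) with its 95% interval (line) in 4 comparisons, first-named group over second; filled points passed the adjusted threshold and the x axes differ between panels. Gabra2 stands alone in both KO7 panels at -1.29 and -1.25, and Gabrd has the largest change of the set in both stage panels, at 4.38 and 3.34.

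Of 10 other GABA-A subunit genes examined, 6 were tested, and in adult wild type set 1 against E19.5 wild type 3 were higher and none passed as lower. Gabra4, the usual alpha partner of delta in forebrain, averaged 19.8 ± 1.00 FPKM in the adult and 5.46 ± 0.156 FPKM at E19.5 (SD, n = 2 each; log2 change 1.68, limma adjusted p = 2.86e-06). Gabrb1 was also higher (log2 change 0.62, limma adjusted p = 0.00188), as was Gabrr2, which was below 1 FPKM on average in both groups. In KO2 brain 3 of the 6 were higher in the adult and none passed as lower.

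Genes that make, load, take up or break down GABA were higher in 4 of 7 cases and lower in none in adult wild type set 1 against E19.5 wild type. They were the synthesis enzymes Gad1 and Gad2, the vesicle loader Slc32a1 and the breakdown enzyme Abat, with log2 changes of 0.61 to 1.21. Of 15 genes for anchoring and trafficking, 3 were higher and 4 were lower. The trafficking genes Gabarapl1 (1.54) and Nsf (1.45) and Iqsec3 (1.24), which binds gephyrin, were higher. The 4 lower genes, named after their values were seen, were the scaffold gene Gphn (-0.58), Lhfpl4 (-0.60) and Nlgn2 (-0.38), which hold receptors at inhibitory synapses, and Hap1 (-0.81). For the glycine receptor, the fetal alpha subunit gene Glra2 was lower (-2.30) and Glrb higher (1.32), and the other 4 of 6 genes did not pass. Of 5 GABA-B receptor genes, Kctd16 was higher and Kctd12 lower (-1.17).

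Among 18 other chloride transporters and their kinases, 5 were higher and 5 were lower in adult wild type set 1 against E19.5 wild type. The carbonic anhydrase genes Car2 (3.32) and Car7 (2.67), which supply bicarbonate for GABA-A currents, were higher. Neto2, an auxiliary protein of the exporter, was lower (-1.77). The kinase gene Wnk3, which acts on both cotransporters and is named after its value was seen, was lower too (-1.13). Slc12a2 had 12.3 and 15.5 FPKM in adult wild type set 1, against 10.9 and 9.56 FPKM in E19.5 wild type. It was higher in both adult libraries but did not pass (log2 change 0.40, SE 0.21, limma adjusted p = 0.129). In KO2 brain it did, with 16.2 and 17.2 FPKM in the adult, against 11.3 and 8.07 FPKM at E19.5 (log2 change 0.74, SE 0.21, limma adjusted p = 0.0132).

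The ratio of Slc12a5 to Slc12a2 FPKM was 10.3 and 7.90 in adult wild type set 1, against 4.53 and 7.53 in E19.5 wild type. It was 7.61 and 7.62 in adult KO2, against 5.97 and 7.18 in E19.5 KO2. The stages did not overlap in either genotype, but the nearest libraries differed by less than the 2 E19.5 wild-type libraries did. Adult wild type set 2 had ratios of 5.65 and 5.49, inside the range of E19.5 wild type. With 2 libraries a group an exact permutation test of a ratio cannot reach 0.05, and none was made. Slc12a2 is also expressed in choroid plexus, whose 6 markers summed to 170 to 344 FPKM in adult wild type set 1 and 510 to 899 FPKM in E19.5 wild type. The part of these cells in the ratio was not tested.

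**Figure D3:**
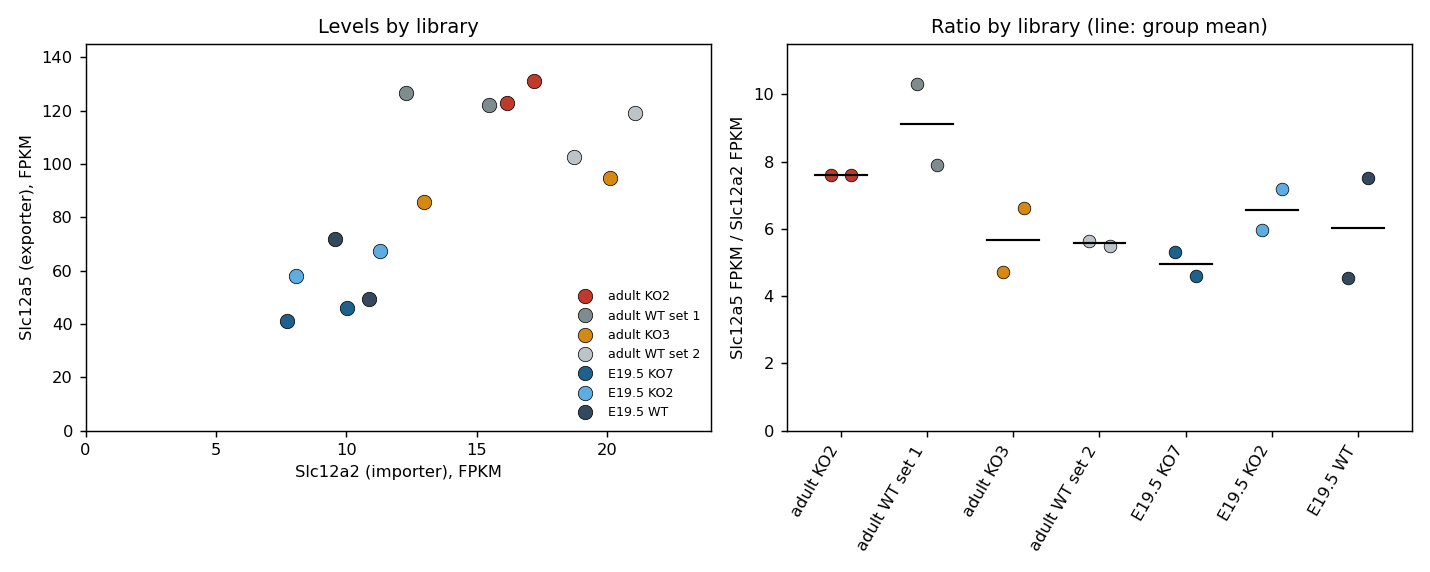
Left, Slc12a5 against Slc12a2 in FPKM, 1 point per library; right, the ratio of the 2 genes by library with the group mean as a line. Adult libraries lie at 85.9 FPKM or more of Slc12a5 and E19.5 libraries at 71.97 FPKM or less, while the ratios of wild type set 2 fall among those of E19.5 libraries.

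Cell type markers also differed by stage. In adult wild type set 1 against E19.5 wild type, 7 of 10 neuron markers were higher and 2 lower, 8 of 10 markers of immature neurons and progenitors were lower, and 8 of 10 astrocyte, 8 of 10 oligodendrocyte and 10 of 10 microglia markers were higher. The summed level of the oligodendrocyte markers was 2523 to 3292 FPKM in adult wild type set 1 and 123 to 147 FPKM in E19.5 wild type. Of 8 cerebellar granule cell markers 4 were lower and 0 higher in that comparison. Their sums were 39.9 to 62.5 FPKM in adult wild type set 1 and 137 to 140 FPKM in E19.5 wild type. In bulk RNA, fewer cells of a type and less RNA per cell cannot be told apart, and the part of these shifts in the member changes was not tested.

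Promoter windows are shown for the genes with the clearest changes: Gabra5 and Slc12a5, which moved in opposite directions with stage, and Gabra2, which fell in KO7 brain. RefSeq (GRCm38.p6) gave 10 windows of 300 bases, from 250 before to 50 after a transcript start, for 6 of the 7 members, and none was used for Gabrd. Each line gives the sequence 5′ to 3′ on the strand of the gene, and capitals mark matches to GGGCGG on either strand.
Gabra5, chr7:57510010-57510309, minus strand: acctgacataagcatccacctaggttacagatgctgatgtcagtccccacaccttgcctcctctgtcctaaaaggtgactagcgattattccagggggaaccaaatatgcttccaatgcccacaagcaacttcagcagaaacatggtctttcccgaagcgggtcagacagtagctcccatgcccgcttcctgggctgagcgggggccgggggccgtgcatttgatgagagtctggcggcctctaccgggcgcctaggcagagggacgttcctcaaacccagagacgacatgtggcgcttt
Slc12a5, first start, chr2:164960596-164960895, plus strand: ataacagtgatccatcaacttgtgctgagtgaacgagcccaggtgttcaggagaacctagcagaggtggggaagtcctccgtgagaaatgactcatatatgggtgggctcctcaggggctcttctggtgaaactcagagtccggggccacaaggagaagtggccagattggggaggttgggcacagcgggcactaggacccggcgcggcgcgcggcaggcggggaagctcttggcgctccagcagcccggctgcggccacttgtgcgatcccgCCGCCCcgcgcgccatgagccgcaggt
Gabra2, chr5:71095800-71096099, minus strand: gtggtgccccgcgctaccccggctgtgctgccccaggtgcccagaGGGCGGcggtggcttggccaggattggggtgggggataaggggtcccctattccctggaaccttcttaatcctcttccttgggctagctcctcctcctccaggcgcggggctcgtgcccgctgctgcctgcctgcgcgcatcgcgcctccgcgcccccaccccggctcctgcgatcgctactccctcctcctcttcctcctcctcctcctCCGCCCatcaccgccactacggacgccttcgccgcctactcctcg

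All windows were searched on both strands for the TATA box TATAAA, the neuronal E box CAGCTG and the E box CACGTG. The other motifs were TGACG, found in cAMP response elements, the GC box core GGGCGG, and the EGR core GTGGGCG, which can overlap the GC box. The GC box core had 2 matches in the Gabra2 window and 1 in the first Slc12a5 window, and none of the 6 motifs had a match in the Gabra5 window. GGGCGG was found in 35.7% of 32851 RefSeq windows of this length, so a match is common. The GC content was 70.0% for Gabra2, 63.7% for the first Slc12a5 start and 56.7% for Gabra5, against a median of 52.7% over all windows. The first Gabrb2 window held the TATA box, the cAMP motif and the GC box core, both Gabra3 windows held the TATA box, and the second Slc12a5 window held CACGTG and the GC box core. TATAAA was in 13.6% and CACGTG in 7.15% of all windows. The Gabrg1 window and the other 2 of Gabrb2 held none of the motifs. A match is a description of the letters and not a binding site.

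At E19.5, KO7 brain was set against wild type and against KO2 brain. Gabra2 fell in both comparisons and was the only member to pass in either. The background was 4.45% of tested genes passing against wild type and 5.63% against KO2. Gabra2 had 12.8 and 13.3 FPKM in KO7, against 32.7 and 34.0 FPKM in wild type. The KO7 libraries lay close together and far below every other library of the series, the next of which was adult KO3 replicate 2 at 25.3 FPKM. The means were 13.04 ± 0.351 FPKM in KO7 and 33.3 ± 0.887 FPKM in wild type (SD, n = 2 each), a log2 change of -1.29 with a 95% interval of -1.64 to -0.94 (limma adjusted p = 0.00248) and an FPKM ratio of 0.391. Against E19.5 KO2, which had 33.7 and 31.1 FPKM, the log2 change was -1.25 (SE 0.16, limma adjusted p = 0.00223). Both comparisons share the KO7 libraries.

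The other members lay lower in KO7 than in wild type except Gabrd, and none of them passed. Gabrb2 had 14.4 and 17.4 FPKM in KO7, against 25.5 and 24.01 FPKM in wild type (log2 change -0.61, SE 0.16, limma adjusted p = 0.0599). This was the nearest miss, and it passed with E19.5 libraries alone (adjusted p = 0.0303, where 8.44% of genes passed) and with median-of-ratios scaling (adjusted p = 0.039, where 4.86% did). It also passed without either adult KO3 library. Slc12a5 had 41.01 and 46.1 FPKM in KO7, against 49.3 and 71.97 FPKM in wild type (log2 change -0.45, limma adjusted p = 0.157). The value was -0.71 without E19.5 wild type replicate 1 and -0.18 without E19.5 wild type replicate 2. Both KO7 libraries were below both wild-type ones for these genes, and the 2 wild-type libraries lay far apart for Slc12a5. Gabra5 had 26.7 and 22.3 FPKM in KO7, against 37.1 and 30.2 FPKM in wild type (log2 change -0.44, limma adjusted p = 0.229). Gabra3 had 21.5 and 21.4 FPKM in KO7, against 25.0 and 28.6 FPKM in wild type (log2 change -0.30, limma adjusted p = 0.429). Again neither gene overlapped between the groups. Gabrg1 had 5.15 and 4.28 FPKM in KO7, against 6.91 and 6.78 FPKM in wild type (log2 change -0.46, limma adjusted p = 0.360). Gabrd had 1.77 and 1.21 FPKM in KO7, between the 2.44 and 0.724 FPKM of wild type.

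In KO7 the libraries of 6 of the 7 members lay below those of wild type with no overlap, and those of 7 of 7 lay below E19.5 KO2. Over all tested genes this held for 29.6% and 27.3%. The median member log2 change was -0.45 against wild type and -0.44 against KO2, beside medians over all genes of 0.005 and 0.015. Against KO2, Slc12a5 was the nearest to passing after Gabra2 (log2 change -0.51, SE 0.17, limma adjusted p = 0.101), and the other 5 genes had log2 changes of -0.67 (Gabrd) to -0.30 (Gabra5). Gabra3 (-0.39) passed in that comparison in 1 of the settings run, with E19.5 libraries alone (adjusted p = 0.0433), where 10.7% of genes did.

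The rest of the subunit genes gave no call in KO7. Of 6 tested subunits outside the set, 4 were below wild type and 6 were below KO2. Gabrg3, a neighbour of Gabra5 on chromosome 7, had 2.78 and 3.71 FPKM in KO7, against 6.85 and 6.77 FPKM in wild type (log2 change -0.89, SE 0.23, limma adjusted p = 0.0526). Both genes lie on the same chromosome as the Snrpn-DMR, which is deleted in KO7. Neither gene passed, and the part of that deletion in their levels was not tested. Gabrg1, the neighbour of Gabra2 on chromosome 5, did not pass.

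Slc12a7, a potassium and chloride cotransporter gene of epithelia, was the only one of 18 other chloride transporters and kinases to pass in KO7 against wild type. It had 5.70 and 6.19 FPKM in KO7, against 2.89 and 3.73 FPKM in wild type (log2 change 0.69, limma adjusted p = 0.0464). Slc12a2 had 7.72 and 10.03 FPKM in KO7, against 10.9 and 9.56 FPKM in wild type, and did not pass. No gene for GABA synthesis and uptake, receptor anchoring, GABA-B receptors or glycine receptors passed against wild type. Against KO2, the uptake carrier Slc6a13 was higher (log2 change 1.15, limma adjusted p = 0.0128). Slc12a7 was higher there too (0.82), and Car2 lower (-0.70). Without the 3 libraries that stand apart, of these 3 calls the one on Slc12a7 was kept (1.01, limma adjusted p = 0.0333), while Slc6a13 (1.09, adjusted p = 0.0852) and Car2 (-0.70, adjusted p = 0.104) no longer passed.

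Other features differed along with Gabra2 in KO7. Endothelial and pericyte markers were above wild type in 10 of 10 cases, 3 of which passed, with sums of 154 to 175 FPKM in KO7 and 95.9 to 102 FPKM in wild type. Red cell markers summed to 2478 to 2641 FPKM in KO7 and 95.01 to 519.5 FPKM in wild type. Neuron markers were above wild type in 4 of 10 cases and none passed, with sums of 3298 to 3876 FPKM in KO7 and 2915 to 3142 FPKM in wild type. Markers of immature neurons and progenitors were above in 8 of 10 cases, and 1 passed. The KO7 libraries had Xist, the RNA of the inactive X chromosome, at 0.0159 and 0.0402 FPKM, against 117 and 106 FPKM in wild type. The Y-linked gene Ddx3y had 7.72 and 7.07 FPKM in KO7 and was at 0 in both wild-type libraries. Sex and genotype cannot be told apart here, and the part of blood, vessels or sex in the Gabra2 change was not tested.

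Markers also differed between KO7 and KO2 at E19.5. Those of immature neurons and progenitors were higher in 5 of 10 cases, with sums of 337 to 361 FPKM in KO7 and 251 to 253 FPKM in KO2. Astrocyte markers were lower in 5 of 10 cases, with sums of 285 to 387 FPKM in KO7 and 521 to 561 FPKM in KO2. Oligodendrocyte markers were lower in 4 of 10 cases, with sums of 113 to 143 FPKM in KO7 and 196 to 276 FPKM in KO2. Of 10 neuron markers 1 was lower, and 8 lay below KO2. Of 10 endothelial and pericyte markers 2 were higher and 1 lower. Red cell markers summed to 2478 to 2641 FPKM in KO7 and 405 to 738 FPKM in KO2. Ddx3y had 7.72 and 7.07 FPKM in KO7 and was at 0 in both KO2 libraries. Sex and genotype therefore cannot be told apart in this comparison either. Xist had 1.498 FPKM in KO2 replicate 1 and 84.01 FPKM in replicate 2, so the 2 KO2 libraries also differed from each other. The part of the marked cells, of Xist or of sex in the lower levels of Gabra2 and of the other members, with the X-linked Gabra3, was not tested.

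Without the 3 libraries that stand apart, 1 of which is E19.5 KO2 replicate 1, the calls of members that use E19.5 KO2 were kept. Gabra2 in KO7 against KO2 was then -1.19 (limma adjusted p = 0.00308). In adult against E19.5 KO2, Gabrd was 3.499 (adjusted p = 0.000233), Slc12a5 was 1.119 (adjusted p = 0.00276), Gabrb2 was 0.80 (adjusted p = 0.00182) and Gabra5 was -0.74 (adjusted p = 0.0229). Of 31 calls on genes of the other inhibitory lists in that comparison 29 were kept, all 31 with the same direction, and Slc12a2 was 0.96 (adjusted p = 0.00358). In KO7 against KO2, Slc12a5 was -0.40, Gabrb2 was -0.26 and Gabrd was -0.50, beside -0.51, -0.37 and -0.67 with all libraries. Each of these values rests on 1 E19.5 KO2 library, which is assumed to vary like the other groups.

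In E19.5 KO2 against wild type no member passed by limma, where 1.28% of tested genes did and the libraries of 57.2% did not overlap. An unadjusted p under 0.05 was found for 1 member, beside 2305 of the 14322 tested genes. That member was Gabrd, with 3.39 and 2.51 FPKM in KO2, against 2.44 and 0.724 FPKM in wild type. The KO2 libraries were higher without overlap, but the 2 wild-type libraries lay further apart than the groups' means (log2 change 0.69, SE 0.30, limma adjusted p = 0.290). The value was 0.19 without wild type replicate 2, 1.19 without wild type replicate 1 and 0.53 without the 3 libraries that stand apart. Gabra2 had 33.7 and 31.1 FPKM in KO2, against 32.7 and 34.0 FPKM in wild type, and the groups overlapped. Gabrb2 had 22.3 and 19.2 FPKM in KO2, against 25.5 and 24.01 FPKM in wild type, with no overlap and no call. Gabra3, Gabra5, Gabrg1 and Slc12a5 overlapped between the groups as well. No other gene of the inhibitory lists passed. Astrocyte markers lay above wild type in 10 of 10 cases and oligodendrocyte markers in 9 of 10, with 1 and 2 passing. The astrocyte sums were 521 to 561 FPKM in KO2 and 254 to 303 FPKM in wild type.

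In adult KO2 against adult wild type set 1, again no member passed by limma, while 0.154% of tested genes did and the libraries of 46.3% did not overlap. Gabra5 alone among the members had an unadjusted limma p under 0.05, beside 1051 of the 14322 tested genes. It had 22.5 and 16.1 FPKM in adult KO2, against 12.8 and 11.03 FPKM in wild type set 1 (log2 change 0.64, SE 0.20, limma adjusted p = 0.432). The groups did not overlap, but wild type set 2, at 21.6 and 15.6 FPKM, was as high as KO2, and against that set the log2 change was 0.05. It was 0.41 to 0.87 with 1 library left out. Gabrb2 had 35.6 and 33.0 FPKM in adult KO2, against 29.3 and 27.3 FPKM in wild type set 1. Gabrd had 40.5 and 36.9 FPKM in adult KO2, against 58.0 and 42.8 FPKM in wild type set 1. Neither pair of groups overlapped, and set 2 lay on the far side of KO2 for both genes. Gabra2, Gabra3, Gabrg1 and Slc12a5 overlapped between adult KO2 and wild type set 1. No gene of the other inhibitory lists passed. Slc12a5 had 123 and 131 FPKM in adult KO2, against 127 and 122 FPKM in wild type set 1, and the 95% interval of its log2 change was -0.34 to 0.40.

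The KO2 effect was then compared between stages by the interaction of stage and genotype, where 0.0628% of tested genes passed. No member passed by limma, and 3 had an unadjusted p under 0.05. That number was 0 with wild type set 2 as the adult control and with the sets pooled, and 1 to 3 with 1 library left out. For Gabra5 the adult effect minus the E19.5 effect was 0.78 on the log2 scale (SE 0.28, limma adjusted p = 0.244). For Gabrb2 it was 0.51 (SE 0.23, limma adjusted p = 0.334), and for Gabrd it was -1.05 (SE 0.43, limma adjusted p = 0.294). With wild type set 2 as the adult control Gabra5 was 0.19, Gabrd was -0.54 and Gabrb2 turned to -0.35. With 1 library left out Gabrd was -1.54 (without E19.5 wild type replicate 1) to -0.55 (without E19.5 wild type replicate 2). Without the 3 libraries that stand apart the values were 0.68 for Gabra5, 0.62 for Gabrb2 and -0.88 for Gabrd. Over all tested genes, 18.3% had groups that did not overlap at either stage and opposite directions, as Gabrb2 and Gabrd did.

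Adult KO3 was set against wild type set 2, where 22.1% of tested genes passed, 1990 higher and 1174 lower. Under quantile scaling the split was 1609 higher and 1808 lower, and with adult libraries alone no gene passed (limma, 4403 genes with an unadjusted p under 0.05). Without the 3 libraries that stand apart 85 genes passed (0.593%). Gabrb2 was the only member to pass, and 1 of 7 is below the background. It had 43.5 and 30.1 FPKM in KO3, against 55.3 and 49.5 FPKM in wild type set 2 (log2 change -0.52, SE 0.16, limma adjusted p = 0.044). The call was kept in 8 of 26 other settings. It was lost with the direction kept in 17, including without adult KO3 replicate 2 (-0.26) and without the 3 libraries that stand apart (-0.34). Against wild type set 1 the direction turned and the call was lost too (0.34, limma adjusted p = 0.134).

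In adult KO3 replicate 2 several members were low together. Gabra2 had 38.5 and 25.3 FPKM in KO3, against 38.9 and 37.2 FPKM in wild type set 2. Gabra3 had 30.2 and 18.1 FPKM in KO3, against 35.3 and 27.2 FPKM in wild type set 2. Gabrg1 had 7.27 and 3.84 FPKM in KO3, against 6.81 and 5.95 FPKM in wild type set 2. Replicate 2 was below both wild-type libraries for each of these genes and replicate 1 was not. Gabrd ran the other way, with 32.5 and 51.5 FPKM in KO3, against 35.4 and 34.0 FPKM in wild type set 2. Gabra5 had 23.2 and 19.7 FPKM in KO3, against 21.6 and 15.6 FPKM in wild type set 2. Slc12a5 had 94.7 and 85.9 FPKM in KO3, against 119 and 103 FPKM in wild type set 2, lower in both replicates without a call (limma adjusted p = 0.216). Outside the set, Gabrg3 (log2 change -0.81) passed as lower in KO3, and Gabrr2 passed as higher (0.53). Lower genes of the other lists were the GABA-B receptor genes Gabbr2 (-1.30) and Kctd16 (-1.05), the anchoring gene Shisa7 (-0.68), and Slc4a8 (-0.88) and Wnk2 (-0.56) among chloride and bicarbonate carriers and kinases. Gabarap was higher (0.83). Of these 8 calls 0 were kept without the 3 libraries that stand apart, where KO3 and set 2 have 1 library each, and all 8 kept their direction. Gabbr2 was then -0.79 (limma adjusted p = 0.0778). Summed granule cell markers were 258 to 319 FPKM in KO3 and 318 to 371 FPKM in wild type set 2, and their part in these changes was not tested.

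Both wild type sets together show how far adult wild-type brain libraries of this series lay apart for the same gene. Gabrb2 had 55.3 and 49.5 FPKM in set 2, against 29.3 and 27.3 FPKM in set 1. Gabra5 was higher in set 2 and Gabrd was lower, both without overlap. Slc12a5 was lower in set 2 too, with 119 and 103 FPKM against 127 and 122 FPKM in set 1, also without overlap. Gabra3 and Gabrg1 overlapped. The share of all tested genes without overlap between the sets was not counted. Gabra2 had 38.9 and 37.2 FPKM in set 2, against 36.1 and 34.0 FPKM in set 1, a smaller gap. The sets were handled differently before deposit and differ in granule cell markers, and no test was made between them.

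The likeness of other genes to each member was measured as the root mean square difference of log2(FPKM + 1) over the 14 libraries, after each gene was centred on its own mean. Slc12a5 had the closest match, Stim1, at 0.117, followed by Gpr123 and Lrtm2, while the median over tested genes was 0.704. Among the 3 genes nearest to Gabrd were Itpka (0.205) and Cryab, against a median of 2.04. For Gabra2 they were Trappc9 (0.161), Cntn1 and Cd47, and for Gabrb2 they were Rmnd5a, Dmd and Ttll5. Gabra5 lay nearest to Zranb1, Sobp and Btf3l4, Gabra3 to Cobl, Snap91 and Wdr7, and Gabrg1 to Rab9b, Slitrk6 and Uevld. No member was among the 3 nearest genes of another. The closest pair within the set was Gabra3 and Gabrg1, at 0.251. Genes that vary little lie close to any flat gene, and Gabra3 and Gabrg1 varied least among the members.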

How the data were processed

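The deposited table gives 1 FPKM value for every gene in each brain library. Cufflinks 2.2.1, TopHat2 2.1.1, CASAVA and the genome build mm9 appear in the submitters' processing notes, without roles. Which annotation was used, and whether counting used strand, is not given in the sources used here. Per the file headers, the unit word FPKM stands over 10 of the 14 libraries, and the other 4 (adult KO3 and wild type set 2) were taken as FPKM from the authors too. Groups come from the sample titles.

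From these values log2(FPKM + 1) was computed, and the test covered 14322 genes that reached 1 FPKM in 2 or more libraries, all 7 members among them. A further 2 rows named no gene and were left out. Group means of all 14 libraries were fitted in 1 model by the 2-sided limma test (limma 3.58.1, R 4.3.3, with a mean-variance trend, 7 residual degrees of freedom, Benjamini-Hochberg adjustment, threshold 0.05). The fit was tested on simulated data. Ratios of low values showed no steps of whole reads (at most 7.24% of genes in 1 bin over 45 library pairs), and no counting interval could be given at an unknown depth. Values within a group were not copies of each other.

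Log2 changes are printed or plotted for all members in the KO7 and stage comparisons, and elsewhere for members with an unadjusted p under 0.05; other members are given by their FPKM and overlap. From each other list, up to 3 genes past the threshold with the smallest p are named, with any other GABA-A subunit and Slc12a2 whatever its p. For likeness, up to 3 of the nearest tested genes are named. Some genes of the lists are not reported here and stay out of the list counts. The members and lists were chosen with earlier results of these data known. Names and gene neighbours come from a RefSeq table of GRCm38.p6 and promoter windows from RefSeq. Alternatives changed the pseudocount, filter, scaling, trend, libraries in the fit, wild type set and replicate block, and left out each library in turn. Correlations of replicate deviations between groups were -0.33 to 0.23, the highest for adult KO2 and wild type set 1, and cannot exclude a pairing.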

Additional observations from a re-analysis of the deposited data

Results flagged for a closer look

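For Gabrb2 and Gabrd the KO2 libraries and the wild-type libraries did not overlap at either stage, and the direction differed between the stages, as it did for 18.3% of all tested genes. Gabrb2 lay above wild type set 1 in adult KO2 and below wild type in E19.5 KO2, and the adult effect minus the E19.5 effect was 0.51 (log2, limma adjusted p = 0.334). Gabrd lay below wild type set 1 in adult KO2 and above wild type in E19.5 KO2, and the adult effect minus the E19.5 effect was -1.05 (log2, limma adjusted p = 0.294), or -1.54 to -0.55 with 1 library left out. Neither difference passed the test of the interaction. Both rest on wild type set 1. Against wild type set 2 (35.4 and 34.0 FPKM), Gabrd in adult KO2 (40.5 and 36.9 FPKM) lay above without overlap, the same direction as at E19.5, and the difference of the effects was -0.54. Against set 2 (55.3 and 49.5 FPKM), Gabrb2 in adult KO2 (35.6 and 33.0 FPKM) lay below without overlap, also as at E19.5, and the difference was -0.35.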

How the results depend on the processing

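The 26 alternative settings were run for the 7 members in 8 comparisons (56 in all) wherever a setting applied. Gabrd had no value with a filter of 1 FPKM in all libraries, and comparisons of stages had none within a stage. Of 1399 values, 1300 kept their direction and their side of the threshold, and 67 changed direction. With the direction kept, 21 lost a call and 11 gained one. Of the 67, 1 had been called in the main fit and no longer passed. Of the 10 calls, Gabra2 in both KO7 comparisons, Gabrd and Slc12a5 in both stage comparisons and Gabra5 in the wild-type one held in all settings run. Of the changes in direction, 50 concerned 19 member comparisons that are given only as FPKM. The other changes of direction concerned values near 0 or the choice of wild type set, and the cause was not tested. Gabra3 in adult wild type set 1 against E19.5 wild type was 0.10 with quantile scaling, 0.083 with median-of-ratios scaling, 0.0724 with pooled sets, 0.21 with set 2 and -0.24 to 0.12 with 1 library left out. Gabrg1 in that comparison was 0.0308 with quantile and 0.0514 with median-of-ratios scaling, and -0.28 to 0.12 with 1 library left out. Gabrg1 in adult against E19.5 KO2 was 0.0005 without the 3 libraries that stand apart, and -0.53 to 0.16 with 1 left out. Gabrd in KO7 against wild type was -0.0081 with a pseudocount of 10, and -0.48 to 0.52 with 1 left out. With the other wild type set, Gabrb2 was 0.34 in adult KO3 and -0.35 in the interaction.

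The number of members passing in KO7 against wild type was 2 with median-of-ratios scaling and with E19.5 libraries alone, where 4.86% and 8.44% of tested genes passed. It also changed without the 3 libraries and in some fits with 1 library left out, which leave 1 library in a group. Against KO2 it was 2 with E19.5 libraries alone (Gabra2 and Gabra3). In adult KO2 it was 1 with wild type set 2, where 11.8% of tested genes passed. In adult KO3 it was 2 with quantile scaling and 0 with no filter, adult libraries alone or pooled sets. It also changed without the 3 libraries and with 1 left out, fits that can leave 1 library in KO3 or set 2. Under quantile scaling 23.9% of tested genes passed in adult KO3. In adult against E19.5 KO2 the number of members passing was 2 with pooled sets, where 39.4% of tested genes passed. The replicate block changed no member count: 0 in E19.5 KO2, 1 in each KO7 comparison, 0 in adult KO2, 1 in adult KO3, and 3 and 4 in the stage comparisons. The numbers mark no shared animal or day in the labels. Read depth is unknown, and the precision rests on 2 libraries a group.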
